A study of Rattus norvegicus with 20 samples.

Results

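Potassium channel genes were taken as the genes whose symbol starts with Kcn and a further letter, the naming stem of the pore-forming and auxiliary subunits of potassium channels. Of 32402 genes in each table, 20849 carried a symbol and 92 of these matched. With a mean of at least 10 normalized counts in any table, 79 were kept as members, of which 76 reached that mean in every table. Sorted by the naming convention, the 79 were 35 voltage-gated pore-forming (alpha) subunits, 11 voltage-gated auxiliary subunits, 10 calcium- and sodium-activated channel subunits, 13 inward rectifiers, 9 two-pore channels and Kcnrg, a regulator that fits none of these. The members were measured in poly(A) RNA from punches of the supraoptic nucleus (SON) of male Wistar Han rats, 5 in each of 4 groups. Adult rats were 3 months and aged rats 18 months old. Euhydrated (EH) rats had water, and dehydrated (DH) rats were without it for 2 days by the sample labels, whereas the study's methods give a longer period. The study asked how the SON transcriptome differs with age and how it responds to DH at each age.

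Potassium channels set the resting potential, the width of the action potential and the hyperpolarization that follows it. In the magnocellular neurons of the SON, which make vasopressin and oxytocin, they shape the firing patterns that govern hormone release, and calcium-activated channels of small and large conductance carry much of the after-hyperpolarization. Inward rectifiers and two-pore channels hold the membrane near the potassium equilibrium and, in astrocytes, take up the potassium that active neurons release.

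The values are normalized counts, read counts divided by a size factor estimated within the table of each comparison. Each library's values summed to between 25931931 and 28689164 over the 3 tables. LFC is the difference between group means of log2(normalized count + 1), which understates the change of low genes. DEGs are genes with a Benjamini-Hochberg adjusted p under 0.05 in limma's two-sided moderated test over all genes that averaged 10 or more, and SE is the standard error of the LFC. The ageing comparison shares its adult EH rats with the adult DH comparison and its aged EH rats with the aged DH comparison, whereas the DH comparisons share no rats. The magnocellular genes Avp and Oxt together summed to 193900 or more in every library. In bulk RNA, fewer cells of a type and less RNA per cell cannot be told apart.

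The 13 symbols below the minimum in every table were Kcna7, Kcna10, Kcnq1, Kcne1, Kcnmb3, Kcnu1, Kcnj1, Kcnj15, Kcnk6, Kcnk7, Kcnk15, Kcnk16 and Kcnk18. Of these, Kcne1, Kcnk6, Kcnk18 and Kcnmb3 were listed at 0 in every library. Just outside the minimum was Kcnq1, with means of 9.45, 8.60 and 9.82 in the ageing, adult DH and aged DH tables. Just inside it were Kcng3 with 11.4, 9.78 and 11.3, Kcnv2 with 10.8, 12.7 and 6.80, and Kcne3 with 5.09, 10.7 and 9.33 in the same order. No row carried the symbol Kcnd2 or Kcnb2, and these were not analysed here. Normalized counts are not corrected for length, so levels are compared within a gene only.

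The promoters of Kcnn3 and Kcnt2, the calcium- and sodium-activated members with the lowest adjusted p in adult DH, show the sequence before genes whose RNA differed. That of Kcnj16 is printed as the only tested member with the AP-1-like letters TGANTCA in its window. Windows run from 250 bases before to 50 bases after the RefSeq start, in the GRCr8 build, and are printed in lower case from 5′ to 3′ on the gene's strand with motif letters in capitals (chr2:177234090-177234389, plus strand, chr13:54215057-54215356, plus strand, and chr10:96517074-96517373, plus strand).
Kcnn3: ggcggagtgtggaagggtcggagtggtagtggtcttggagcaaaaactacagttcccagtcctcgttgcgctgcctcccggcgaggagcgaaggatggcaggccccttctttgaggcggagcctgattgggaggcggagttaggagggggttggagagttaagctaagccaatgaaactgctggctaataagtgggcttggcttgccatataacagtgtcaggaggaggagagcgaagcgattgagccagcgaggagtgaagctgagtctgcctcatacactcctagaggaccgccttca
Kcnt2: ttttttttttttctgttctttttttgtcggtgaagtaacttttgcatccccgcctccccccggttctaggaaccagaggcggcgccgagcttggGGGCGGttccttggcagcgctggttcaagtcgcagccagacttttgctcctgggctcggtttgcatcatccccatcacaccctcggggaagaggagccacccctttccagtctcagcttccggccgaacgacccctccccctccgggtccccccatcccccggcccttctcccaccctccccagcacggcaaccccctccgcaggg
Kcnj16: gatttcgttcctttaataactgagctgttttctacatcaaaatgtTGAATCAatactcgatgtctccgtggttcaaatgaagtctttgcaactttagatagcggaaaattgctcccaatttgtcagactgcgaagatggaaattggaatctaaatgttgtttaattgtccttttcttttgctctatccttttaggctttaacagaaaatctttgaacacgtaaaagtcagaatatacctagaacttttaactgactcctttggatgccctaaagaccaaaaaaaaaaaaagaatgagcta
On both strands 3 motifs were searched, which do not contain one another. They were the cAMP response element TGACGTCA, the AP-1-like letters TGANTCA and the GC box GGGCGG. Here N is any base, which is looser than the AP-1 motif itself. In these windows the capitals mark a GC box in Kcnt2, whose first base is at -156 from the start. In Kcnj16 they mark TGAATCA, with A as the free base, and its first base is at -205. Kcnn3 held none of the 3 motifs. Over the 59 windows of tested members, 0 held the cAMP response element, 1 held the AP-1-like letters (1.69%) and 34 held a GC box (57.6%). In all 33469 RefSeq windows the shares were 1.83%, 7.33% and 33.1%, and the median GC content was 62.7% for tested members and 51.7% for all windows. A match is a description of letters and not of a bound site. Windows and not genes were counted, and some members, such as Kcnk2 and Kcnt1, had more than 1. Other members had no entry, among them Kcnk1, Kcnj12, Kcnq3, Kcnv1 and Kcns2, and their motifs could not be read.

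Several members among the 3 with the highest mean in their family were not DEGs in any of the 3 comparisons. Kcna2, which sets the threshold of axonal firing, averaged 6238 in adult EH, 5749 in adult DH, 6430 in aged EH and 6557 in aged DH, the values at each age coming from its own DH table. Kcna6, of the same branch, averaged 4900, 5197, 4987 and 5421 in that order. Kcnab2, which binds such channels, averaged 3174 ± 100, 2968 ± 178, 3474 ± 129 and 3599 ± 135 (SD, n = 5), and Kcnip4, a partner of A-type channels, 2712 ± 74.1, 2718 ± 61.2, 3005 ± 192 and 3019 ± 75.5 (SD, n = 5). Kcnma1 averaged 828 ± 29.6, 916 ± 81.1, 897 ± 94.6 and 942 ± 63.8 (SD, n = 5), and Kcnk9 averaged 771 ± 65.8, 708 ± 84.2, 831 ± 61 and 745 ± 84.5 (SD, n = 5). Among these 6 the adjusted p by limma closest to the threshold was 0.110, for Kcna6 in aged DH.

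None of 78 members tested was a DEG between aged EH and adult EH by limma, where 5.99% of all 15369 genes were. At an unadjusted p under 0.05 there were 6 members (7.69%), against 20.3% of all genes. By LFC, 39 members were above and 39 below 0, and their median of 0.00 was close to that of all genes. The lowest adjusted p belonged to Kcnj10, the inward rectifier through which astrocytes clear potassium. Its normalized counts were 1370, 1354, 1117, 1432 and 1540 in aged EH and 1630, 1649, 1389, 1537 and 1759 in adult EH. Every aged rat lay below the adult median, but the groups overlapped. The LFC was -0.23 (SE 0.079, adjusted p = 0.111 by limma). Of 6 astrocyte markers Aqp4 and Gjb6 were lower by limma in the same comparison, with LFCs of -0.26 and -0.33. Gfap had an LFC of 0.09, Aldh1l1 -0.19, Slc1a2 -0.05 and Slc1a3 -0.03, none of them a DEG by limma. The list summed to 98563 to 121280 in aged EH against 103720 to 128540 in adult EH. The part of astrocytes in the Kcnj10 values was not tested.

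The next lowest adjusted p in ageing fell to members of other families. Kcnk2, a two-pore channel that responds to stretch and lipids, had an LFC of -0.13 (adjusted p = 0.168 by limma). Kcna4, a fast-inactivating voltage-gated subunit, had an LFC of 0.17 (adjusted p = 0.193 by limma). Kcnh6, of the ether-a-go-go-related branch, was at 241, 239, 273, 256 and 253 in aged EH and 217, 218, 237, 227 and 229 in adult EH. Every aged rat was above every adult rat for Kcnh6, yet the LFC of 0.16 did not pass (adjusted p = 0.196 by limma). In the same comparison the LFCs were -0.02 for Kcna2, -0.03 for Kcna6, 0.05 for Kcnd3 and 0.05 for Kcnma1, the pore of the large-conductance calcium-activated channel.

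**Figure D1:**
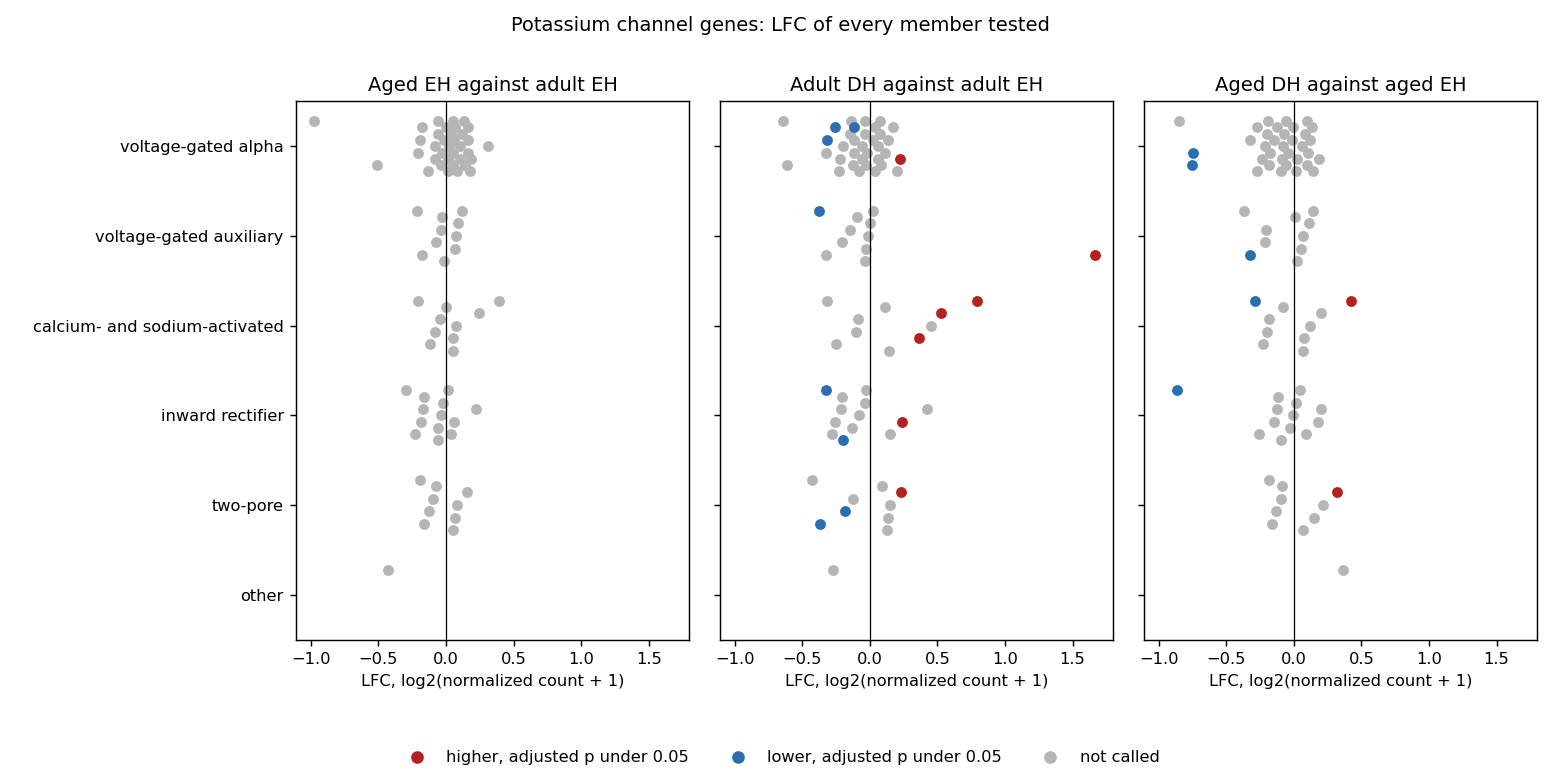
LFC of every member tested (x axis, difference of group means of log2(normalized count + 1)) by family (y axis) in the 3 comparisons, 1 point a gene, red where higher and blue where lower at an adjusted p under 0.05. No point is coloured in ageing, 15 are in adult DH and 7 in aged DH.

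In adult DH, 15 of 78 members were DEGs (19.2%), where 12.7% of all 15280 genes were. Expression was higher in DH for 7 members and lower for 8, and over all genes 7.67% were higher and 4.99% lower. The median LFC of the members was -0.05, with 30 above and 48 below 0, beside a median of -0.01 for all genes. The calcium- and sodium-activated family had 3 of 10 higher and none lower, the inward rectifiers 1 higher and 2 lower of 13, and the two-pore channels 1 higher and 2 lower of 9. Of the voltage-gated alpha subunits 1 of 34 was higher and 3 were lower, and of the auxiliary subunits 1 of 11 was higher and 1 lower. On the whole reads recovered from this table, edgeR called 12.7% of all genes and the same 15 members. DESeq2 called 14.8% and 18 members, 14 of them shared with limma, and gave no adjusted p for Kcne3. Kcne3 entered these fits, which shared the minimum mean, through the DH rats alone, and 14 limma calls remained without it.

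Kcnn3, a small-conductance calcium-activated channel of the after-hyperpolarization, had the lowest adjusted p of the members. Its normalized counts were 654, 713, 694, 766 and 698 in adult DH and 429, 497, 477, 506 and 544 in adult EH. Every DH rat was above every EH rat. The mean rose from 491 ± 42.2 to 705 ± 40.3 (SD, n = 5), 1.44-fold, with an LFC of 0.52 (SE 0.064, adjusted p = 0.000132 by limma). Its relatives Kcnn1 and Kcnn2 had LFCs of -0.10 and -0.31 (adjusted p = 0.528 and 0.0530 by limma), and Kcnn2 passed without adult EH replicate 5 (adjusted p = 0.0306 by limma). The 3 small-conductance genes measured did not share a direction of LFC.

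Kcnt2, a sodium-activated channel, was at 441, 457, 474, 409 and 482 in adult DH and 340, 355, 345, 371 and 346 in adult EH. The groups did not overlap, and the LFC was 0.36 (SE 0.058, 1.29-fold, adjusted p = 0.00111 by limma). Kcnt1, the other sodium-activated channel, had an LFC of -0.09 (adjusted p = 0.515 by limma). Kcnmb1, an auxiliary subunit of the large-conductance channel best known from smooth muscle, was at 48.4, 57, 59.8, 46 and 41.6 in adult DH and 35.6, 27.6, 37.1, 25.3 and 20.3 in adult EH. All DH rats were above all EH rats, with an LFC of 0.79 (SE 0.19, 1.73-fold, adjusted p = 0.0139 by limma). None of the 5 mural cell markers was a DEG by limma, with 1 at an unadjusted p under 0.05. All 5 had LFCs above 0, with a median of 0.14. Their sum ran from 17665 to 25973 in adult DH and from 16895 to 22842 in adult EH. The part of mural cells was not tested. Kcnma1 and Kcnmb4, the pore and the neuronal auxiliary subunit of the same channel, had LFCs of 0.14 and 0.11 (adjusted p = 0.133 and 0.311 by limma).

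Among two-pore channels Kcnk1, a weakly rectifying background channel, was at 842, 864, 818, 825 and 799 in adult DH and 710, 704, 730, 726 and 671 in adult EH. The groups were apart, and the LFC was 0.23 (SE 0.041, 1.17-fold, adjusted p = 0.00250 by limma). Kcnk2 was at 1082, 1119, 1151, 1096 and 1096 in adult DH and 1274, 1201, 1323, 1273 and 1243 in adult EH. Here every DH rat was below every EH rat, with an LFC of -0.19 (SE 0.036, adjusted p = 0.00442 by limma). Kcnk4, like Kcnk2 a mechanically gated channel, fell with an LFC of -0.37 (adjusted p = 0.0320 by limma) from 176 ± 27.0 to 134 ± 7.19 (SD, n = 5). The acid-sensitive channels Kcnk3 and Kcnk9 had LFCs of 0.15 and -0.13 (adjusted p = 0.0923 and 0.353 by limma).

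Of the inward rectifiers, Kcnj16, which pairs with Kcnj10 in glia, was at 1550, 1688, 1492, 1616 and 1700 in adult DH and 1305, 1447, 1464, 1188 and 1426 in adult EH. The lowest DH rat was just above the highest EH rat, and the LFC was 0.24 (SE 0.059, 1.18-fold, adjusted p = 0.0176 by limma). Kcnj10 had an LFC of -0.08 (adjusted p = 0.429 by limma). None of 6 astrocyte markers was a DEG by limma or had an unadjusted p under 0.05, with sums of 98241 to 116170 in DH and 99497 to 123310 in EH. The part of astrocytes in the Kcnj16 values was not tested. Kcnj12, a strong rectifier, was at 238, 202, 208, 230 and 209 in adult DH and 283, 286, 236, 260 and 296 in adult EH. A single EH rat fell within the DH range, and the LFC was -0.32 (SE 0.080, adjusted p = 0.0176 by limma). Kcnj9, a subunit of the channels that G proteins open, was at 791, 821, 742, 804 and 906 in DH and 957, 913, 903, 940 and 945 in EH. The LFC was -0.20 (SE 0.050, adjusted p = 0.0191 by limma), with an overlap from 1 DH rat. Its partners Kcnj3 and Kcnj6 had LFCs of -0.21 and -0.03 (adjusted p = 0.131 and 0.846 by limma). Kcnj13, known from epithelia, had an LFC of 0.42 (adjusted p = 0.0675 by limma) and passed without adult EH replicate 4 (adjusted p = 0.0243 by limma).

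**Figure D2:**
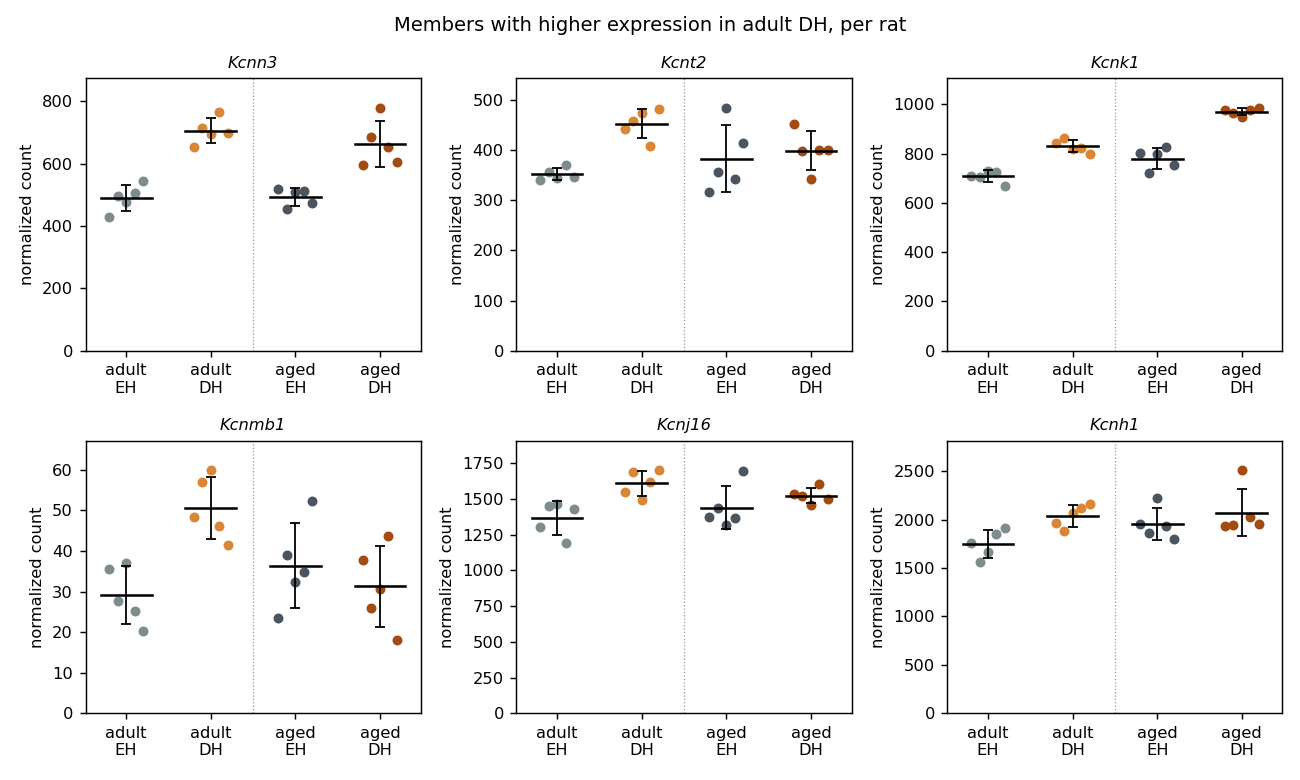
Normalized counts per rat (y axis from 0) of 6 members with higher expression in adult DH, in adult EH, adult DH, aged EH and aged DH (5 points each, line and bars for mean and SD), the adult and the aged groups from separate tables. Kcnn3 and Kcnk1 separated DH from EH at both ages, whereas Kcnmb1 did so in adults, where its LFC was 0.79, against -0.23 in aged rats.

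In the voltage-gated family Kcnq3, a subunit of the M-current that damps repetitive firing, fell in adult DH. It was at 441, 459, 446, 533 and 436 in DH and 514, 517, 559, 656 and 648 in EH, with an LFC of -0.32 (SE 0.082, adjusted p = 0.0223 by limma). A single DH rat reached into the EH range. Kcnq5, a related subunit, had an LFC of 0.04 (adjusted p = 0.761 by limma). Kcna5, a delayed rectifier, fell from 261 ± 15.7 to 217 ± 9.89 (SD, n = 5) with no overlap and an LFC of -0.26 (SE 0.067, adjusted p = 0.0215 by limma). Kcnh1, an ether-a-go-go channel, was at 1960, 1877, 2063, 2120 and 2159 in DH and 1759, 1560, 1661, 1848 and 1916 in EH. It rose with an LFC of 0.22 (SE 0.056, adjusted p = 0.0203 by limma), with 1 EH rat inside the DH range.

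Of the auxiliary subunits, Kcnab1, which speeds inactivation of Kcna channels, fell from 1291 ± 185 to 991 ± 131 (SD, n = 5). The LFC was -0.38 (SE 0.10, adjusted p = 0.0266 by limma). Kcne3 rose from 5.47 ± 4.5 to 15.9 ± 2.02 (SD, n = 5) with an LFC of 1.66 (adjusted p = 0.0201 by limma), but its mean reached the minimum of 10 through the DH rats alone, so its call follows in part from that minimum. On the recovered reads of the same rats, with the same minimum, edgeR gave it an adjusted p of 0.0258 and DESeq2 gave it none. The edgeR value is therefore not separate support for the call. Uncalled with limma but called by DESeq2 were Kcnd3, Kcnj13, Kcnn2 and Kcnv1. Kcnd3, the pore of a transient A-type current, had an LFC of 0.13 (adjusted p = 0.0573 by limma) and passed without adult EH replicate 6 (0.0439) or adult DH replicate 2 (0.0216). Kcnv1, a silent subunit that modifies other voltage-gated channels, had an LFC of -0.64 (adjusted p = 0.0724 by limma) and passed without adult EH replicate 2 (0.0423) or adult DH replicate 4 (0.0270). The LFCs of Kcna2 and Kcna6 were -0.12 and 0.08 (adjusted p = 0.214 and 0.181 by limma).

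**Figure D3:**
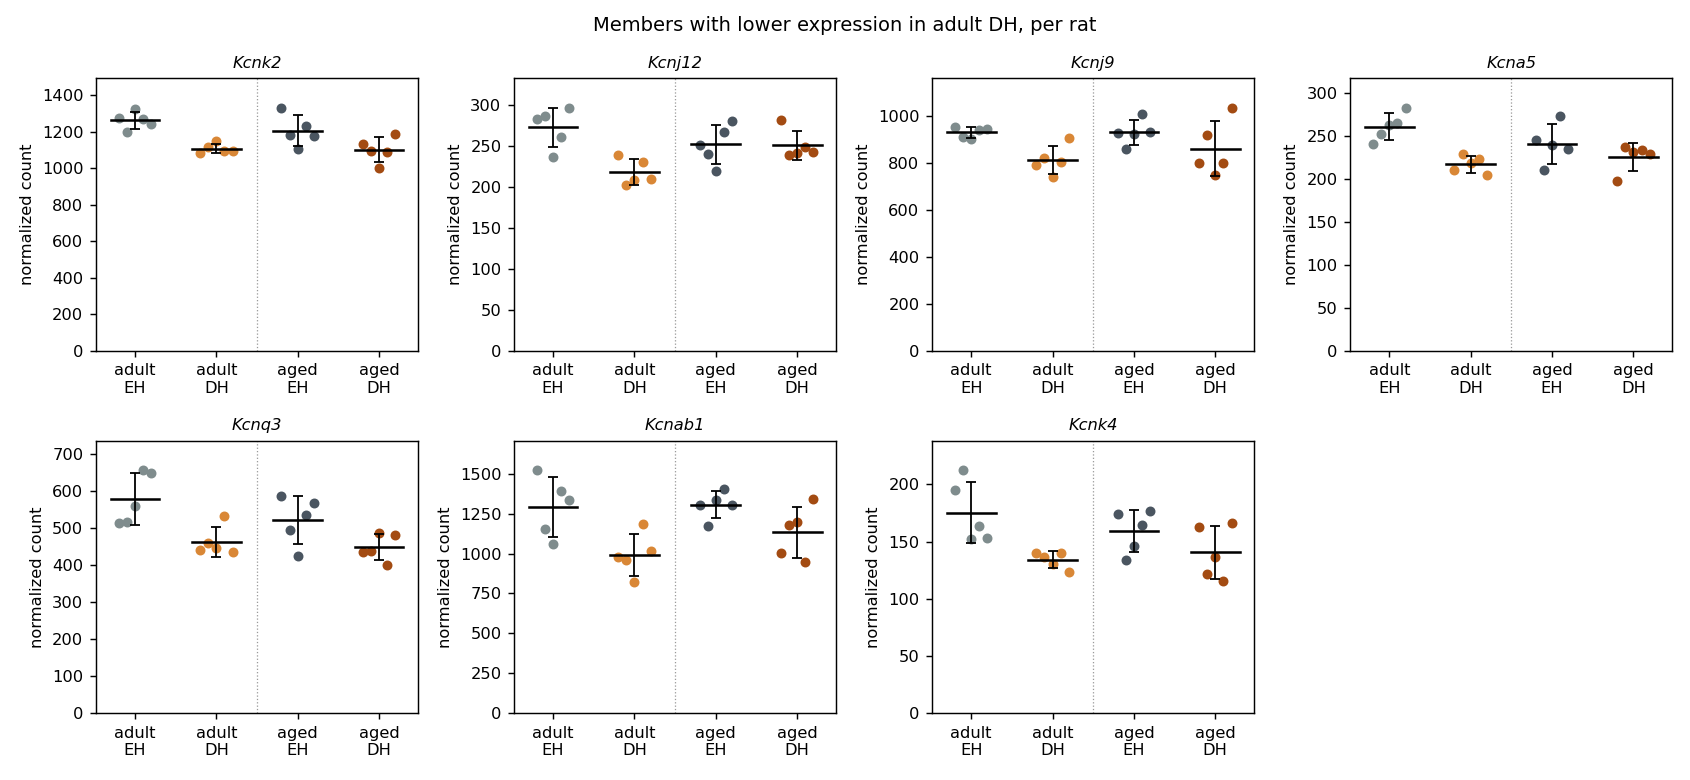
Normalized counts per rat (y axis from 0) of 7 members with lower expression in adult DH, in adult EH, adult DH, aged EH and aged DH (5 points each, line and bars for mean and SD), the adult and the aged groups from separate tables. Kcnk2, Kcna5 and Kcnk4 did not overlap between adult DH and adult EH, and none of the 7 was a DEG in aged DH by limma.

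Some of the 15 adult calls were lost when 1 rat was left out, several of them with any of a number of rats. The LFCs kept their sign, and that of Kcnq3 ran from -0.37 to -0.27. Kcnh1 was lost without adult DH replicate 5 (adjusted p = 0.0501 by limma) and Kcna5 without adult EH replicate 6 (0.0515). Kcnq3 was lost without adult EH replicate 5 (0.0568) or 6 (0.0528) or adult DH replicate 1 (0.0501), 3 (0.0523) or 5 (0.0515). Kcnk4 was lost without adult EH replicate 1 (0.0806) or 2 (0.0737) or adult DH replicate 2 (0.0537), 3 (0.0680) or 5 (0.0702). Kcnab1 was lost without adult EH replicate 1 (0.0634), 5 (0.0659) or 6 (0.0557) or adult DH replicate 1 (0.0509), 2 (0.0540) or 3 (0.0650). Apart from Kcne3, which fell under the minimum mean without adult DH replicate 1 or 4, 8 calls passed whichever rat was left out.

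Some marker genes of cell types, Avp among them, differed in the same comparison. Avp rose, with an LFC of 0.48 (adjusted p = 0.0221 by limma), whereas Oxt had 0.17 and was not a DEG (adjusted p = 0.187 by limma). The study describes a rise of Avp RNA under lasting osmotic stimulation, so its level cannot tell cell number from RNA per cell. The sum of Avp and Oxt ran from 270010 to 366540 in adult DH and from 193900 to 280280 in adult EH. Of 6 markers of cortical-type glutamatergic neurons, which lie outside the SON, only Nrgn was a DEG, with an LFC of -0.61 (adjusted p = 0.0277 by limma). The median LFC of the list was -0.01, with 3 below 0. Slc17a7, Neurod6 and Neurod2 were above 0, with LFCs of 0.23, 0.11 and 0.17. The summed list ran from 7706 to 13842 in adult DH and from 10263 to 17985 in adult EH. Nrgn and Camk2a, which averaged 7748 and 4704.5 in adult EH, made up most of that sum. Cnp of 5 oligodendrocyte markers was lower, and Cspg4 of 2 oligodendrocyte precursor markers was higher. Of 3 general neuron markers Tubb3 was higher, with an LFC of 0.18. Rbfox3 and Syt1, which were not DEGs by limma, had LFCs of -0.12 and -0.08. The part of these cell types in the values of the members was not tested.

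In aged DH, 7 of 77 members were DEGs (9.09%), where 7.29% of all 15346 genes were. They were higher in 2 members and lower in 5, beside 4.05% and 3.25% of all genes. Without aged DH replicate 6 there were 12, a count for which the share of all genes in that fit is not given here. The median LFC of the members was -0.06, with 32 above and 45 below 0, and that of all genes was 0.00. By family 2 of 34 voltage-gated alpha subunits, 1 of 10 auxiliary subunits and 1 of 13 inward rectifiers were lower and none was higher by limma. Of the calcium- and sodium-activated subunits 1 of 10 was higher and 1 lower, and of the two-pore channels 1 of 9 was higher.

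Kcnk1 had the lowest adjusted p of the members in aged rats. It was at 977, 965, 950, 976 and 987 in aged DH and 802, 721, 798, 826 and 754 in aged EH. The DH rats lay within a narrow range above every EH rat, and the mean rose from 780 ± 42.3 to 971 ± 14.1 (SD, n = 5), with an LFC of 0.32 (SE 0.046, 1.25-fold, adjusted p = 0.00138 by limma). Kcnn3 was at 596, 687, 780, 652 and 605 in aged DH and 520, 455, 509, 511 and 473 in aged EH. Again the groups were apart, with an LFC of 0.42 (SE 0.074, 1.34-fold, adjusted p = 0.00360 by limma). Avp and Oxt were not DEGs in this comparison by limma, and they summed to 285730 to 473620 in aged DH against 247080 to 349420 in aged EH. Kcnmb4 had an LFC of 0.20 (adjusted p = 0.0754 by limma), and Kcnip1, a calcium-binding partner of the A-type channels, had 0.14 (adjusted p = 0.0945 by limma), passing without aged EH replicate 6 (0.0496).

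The lower members in aged DH came from several families. Kcnv1 was at 146, 119, 102, 106 and 136 in aged DH and 230, 193, 216, 213 and 172 in aged EH. There was no overlap, and the LFC was -0.75 (SE 0.12, adjusted p = 0.00196 by limma). Kcns2, another silent voltage-gated subunit, was at 36.9, 52.1, 30.7, 43.7 and 56.5 in DH and 79.9, 69, 77.2, 77.3 and 61.4 in EH. The groups were again separate, with an LFC of -0.74 (SE 0.17, adjusted p = 0.0170 by limma). Kcnj4, a strong inward rectifier, was at 146, 178, 112, 80.3 and 171 in DH and 323, 209, 221, 242 and 227 in EH. Every DH rat was lower, with an LFC of -0.87 (SE 0.19, adjusted p = 0.0141 by limma). Kcnt1 was at 1716, 1733, 1651, 1593 and 1883 in DH and 2190, 2026, 2234, 2043 and 1952 in EH. It too fell without overlap, with an LFC of -0.28 (SE 0.051, adjusted p = 0.00394 by limma).

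Kcnip3, a calcium-binding protein that partners A-type channels and also acts in the nucleus, was at 923, 638, 638, 643 and 687 in aged DH and 854, 826, 852, 957 and 886 in aged EH. A single DH rat lay within the EH range and the others lay below it, and the LFC was -0.32 (SE 0.090, adjusted p = 0.0446 by limma). The call was lost without aged EH replicate 1 (0.0714), 2 (0.0585), 4 (0.0603), 5 (0.115) or 6 (0.0811), and without aged DH replicate 2 (0.104), 3 (0.106), 5 (0.114) or 6 (0.0678). Without aged DH replicate 1, the high rat, its adjusted p was 0.00114 by limma. The other 6 calls passed with any rat left out. Uncalled but close were Kcnq5, with an LFC of -0.24 (adjusted p = 0.0546 by limma), and Kcnh3, an ether-a-go-go-like channel of the forebrain, with -0.85 (0.0628). Kcnq5 passed without aged EH replicate 2 (0.0207) or aged DH replicate 6 (0.0404), and Kcnh3 without aged EH replicate 2 (0.0430) or aged DH replicate 2 (0.0410) or 6 (0.0392).

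Beside these lower members, cortical-type glutamatergic markers were lower in aged DH. Of the 6 listed 5 were DEGs by limma, Slc17a7 with an LFC of -1.92, Neurod6 with -2.49, Neurod2 with -1.86, Nrgn with -0.67 and Camk2a with -0.49, and Tbr1 had -0.27 (adjusted p = 0.202 by limma). None of the 6 was at 0 in the group means. Their sum was 9279, 10376, 7681, 6871 and 10555 in aged DH and 18991, 12174, 14482, 15770 and 11805 in aged EH. Every DH rat was below every EH rat, the same order of groups as for Kcnv1, Kcns2, Kcnj4 and Kcnt1. In adult DH and adult EH, where the sums overlapped, the LFCs of Kcns2, Kcnj4 and Kcnt1 were -0.20, -0.28 and -0.09 (adjusted p = 0.542, 0.516 and 0.515 by limma). That of Kcnv1 was -0.64 (adjusted p = 0.0724 by limma), close to its -0.75 in aged DH. The part of cortical-type neurons in the values of these members was not tested.

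**Figure D4:**
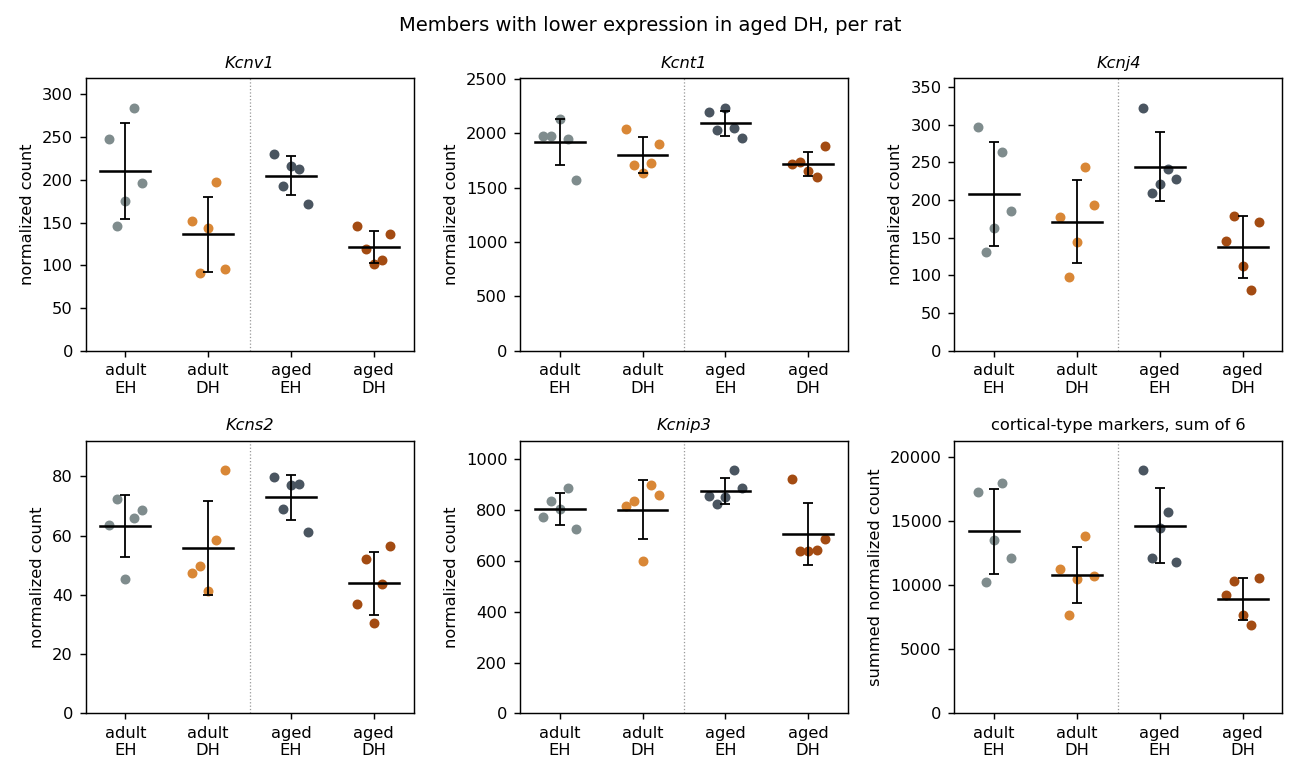
Normalized counts per rat (y axis from 0) of the 5 members with lower expression in aged DH, and the summed normalized count of 6 cortical-type glutamatergic markers, in adult EH, adult DH, aged EH and aged DH (5 points each, line and bars for mean and SD), the adult and the aged groups from separate tables. Kcnv1, Kcnt1, Kcnj4, Kcns2 and the marker sum separated aged DH from aged EH, and 1 aged DH rat at 923 was high for Kcnip3.

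Kcnn3 and Kcnk1 were DEGs in both DH comparisons, both higher. These were 2 of 76 members tested in both (2.63%), beside 3.87% of all genes so tested. Of the 20 members called at either age, 19 were tested at both, and 18 of these had LFCs of the same sign (94.7%), beside 89.3% of all genes called at either age. The exception was Kcnmb1, with 0.79 in adults and -0.23 in aged rats. Its normalized counts in aged rats overlapped between DH and EH. The 5 mural cell markers had a median LFC of 0.14 in adult DH, with 0 of them below 0. In aged DH their median was -0.13, with 4 below 0, and none was a DEG by limma at either age. The part of mural cells in the Kcnmb1 values was not tested.

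**Figure D5:**
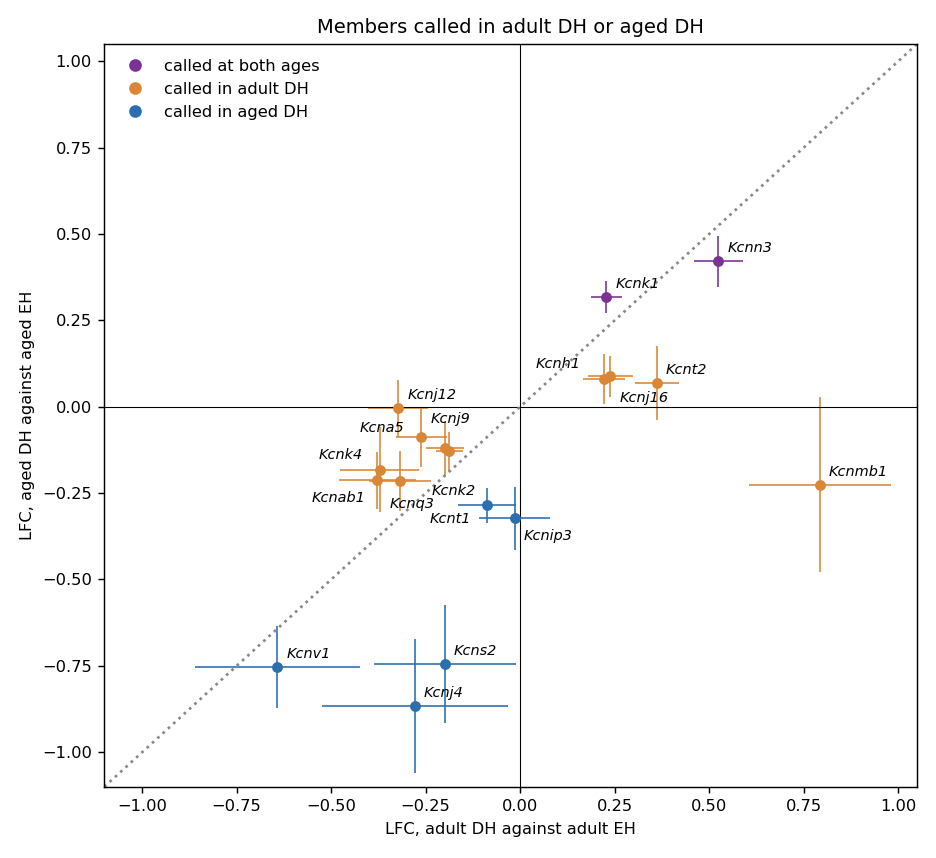
LFC in adult DH (x axis) and in aged DH (y axis) of 18 members called at either age and tested at both, with bars for the SE and a dotted line where the 2 are equal. Kcnn3 and Kcnk1 lie in the upper right, and Kcnmb1 is the only point below 0 on one axis and above it on the other.

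Whether the LFC of DH was unequal at 3 and 18 months (aged less adult) was tested over all 20 rats. None of 78 members passed by limma, and 0% of all 15326 genes did. At an unadjusted p under 0.05 there were 9 members (11.5%), beside 9.93% of all genes. For Kcnn3 the difference was -0.10 (95% interval -0.31 to 0.11, adjusted p = 0.789 by limma) and for Kcnk1 0.09 (-0.03 to 0.21, adjusted p = 0.642 by limma). The lowest adjusted p was that of Kcnmb1, with -1.02 (-1.69 to -0.35, adjusted p = 0.296 by limma). Next were Kcnj12 with 0.32 (0.09 to 0.55, adjusted p = 0.350 by limma), Kcnq5 with -0.27 (0.362), Kcnab2, an auxiliary subunit of Kcna channels, with 0.15 (0.371), and Kcnj10 with 0.26 (0.379). For the members called in adults alone or in aged rats alone, the adjusted p of the difference ran from 0.296 to 0.961 by limma, so none was shown to respond differently with age. The intervals were wide for several of them, such as -0.56 to -0.03 for Kcnt2 and -1.30 to 0.12 for Kcnj4.

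Of 26 potassium channel genes to which currents of magnocellular neurons are commonly ascribed, 25 were tested. The list was chosen with earlier results of these data known, so its shares are given as a description only. None was a DEG in ageing by limma, with 2 at an unadjusted p under 0.05, where 5.99% of all genes were DEGs and 20.3% had such a p. In adult DH 3 were higher (Kcnn3, Kcnt2 and Kcnk1) and 4 lower (among them Kcnq3, Kcnk2 and Kcnj9), with a median LFC of -0.09 and 15 below 0, and these 7 of 25 stand beside 12.7% of all genes. In aged DH 2 were higher (Kcnn3 and Kcnk1) and 1 lower (Kcnt1), with a median of -0.08 and 14 below 0, and these 3 of 25 stand beside 7.29% of all genes. The high-threshold channels Kcnc1 and Kcnc2, which permit fast firing, had LFCs of -0.06 and 0.08 in adult DH and 0.10 and 0.10 in aged DH, neither of them a DEG by limma.

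Proteins that bind these channels or carry them to the membrane were read from a further list of 29 genes, of which 25 were tested. In ageing and for the difference between the ages none passed by limma, with 5 and 6 of 25 at an unadjusted p under 0.05, beside 20.3% and 9.93% of all genes. In adult DH 1 of 25 was called, beside 12.7% of all genes. This was Lgi3, a secreted protein found with axonal Kcna channels, which fell from 4188 ± 228 to 3585 ± 171 (SD, n = 5) with an LFC of -0.22 (adjusted p = 0.00358 by limma). In aged DH 1 of 25 was called, beside 7.29% of all genes. This was its relative Lgi1, which fell from 3076 ± 43.3 to 2771 ± 200 (SD, n = 5) with an LFC of -0.15 (adjusted p = 0.0490 by limma). Lgi1 had an LFC of -0.13 in adult DH (adjusted p = 0.138 by limma), and Lgi3 had 0.02 in aged DH (adjusted p = 0.829 by limma).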

How the data were processed

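Before deposit, the authors mapped trimmed reads to Rn6 with STAR and assigned them to genes with featureCounts (versions not given in the sources used). The deposited signal, in 30 per-sample columns of 3 tables, is a read count over a DESeq2 size factor that was estimated within a table. The tables also hold the authors' own fold changes and p-values, which were not used.

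Values were taken as log2(normalized count + 1). Genes with a mean of at least 10 were tested with limma 3.58.1 in R 4.3.3, with variance moderation that follows the mean, two-sided, and Benjamini-Hochberg adjustment over all genes tested at 0.05. The difference between the ages used all 20 rats, each from the DH table of its age. In the adult DH table every value above 0 (100% of 188383) was a whole number of reads within 0.1 read, with totals of 24268398 to 28491926 per rat, and edgeR 4.0.16 and DESeq2 1.42.0 were run on these reads. Scripts were tested on simulated data. Depth sets the precision of low members such as Kcne3.

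Groups come from the sample labels. Members, lists and tests were chosen with earlier results of these data known. Named are members called in any comparison, the 3 with the highest mean per family, the magnocellular list, the 5 uncalled members of lowest p per comparison, and partner genes where called, except that some members are counted but their own values are not reported here. Alternatives changed the pseudocount, minimum mean, scaling, moderation, model and a block by rat number, and left out each rat in turn. Promoter windows are those of RefSeq. Figures were drawn with matplotlib 3.10.9.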

Additional observations from a re-analysis of the deposited data

Results flagged for a closer look

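In 4 of 74 sets of 5 rats, 1 rat of a named member stood apart from the others by Dixon's test at the 95% level, where chance gives about 1 in 20. For Kcna4 in the ageing table, adult EH replicate 4 was at 427.1, with the next rat at 374.2. For Kcnq3, adult DH replicate 4 was at 533.2, with the next at 459. For Kcnj4, aged EH replicate 1 was at 322.5, with the next at 241.7. For Kcnip3, aged DH replicate 1 was at 923.2, with the next at 686.6.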

How the results depend on the processing

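With pseudocounts of 0.5 and 10, no minimum mean or a minimum of 50, scaling to equal totals or upper quartiles, and robust moderation, limma called 14 to 16 members in adult DH and 6 to 8 in aged DH. In ageing these settings called 0, except 1 without a minimum mean (Kcna7, higher, at means under 10), and for the difference between the ages all of them called 0. Leaving out each rat in turn gave 12 to 16 members in adult DH, 6 to 12 in aged DH, 0 to 0 in ageing and 0 to 0 for the difference. The shares of all genes called under each alternative are not given here. The counts therefore describe how stable the calls were and are not a result about the members. With the rat number as a block, ageing called 1 member (Kcnj10, LFC -0.23, adjusted p = 0.0159 by limma), adult DH 6 (5 higher and 1 lower), aged DH 5 and the difference 0. The numbers do not pair rats. Rats of the same number had correlations of -0.08 to 0.16 between their deviations from the group means, and 6 of 26 libraries correlated best with their own number. Over the named members, 377 of the alternatives of called LFCs kept their call and 44 lost it, 26 of the alternatives of uncalled LFCs passed against 392 that did not, and 0 changed sign. Kcnn3, Kcnt2, Kcnk1, Kcnk2 and Kcnj16 in adult DH and Kcnk1, Kcnv1, Kcnn3 and Kcnt1 in aged DH passed under every alternative run. For members just above the minimum mean, such as Kcne3, depth limits the precision of the LFC.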
